A study of Mus musculus with 51 samples.

Results

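*Olfr1012*, *Olfr1013*, *Olfr1014* and *Olfr1015* are 4 consecutive intact olfactory receptor (OR) genes on mouse chromosome 2, out of 1117 intact OR genes counted in each library. They were taken by gene symbol, and they were chosen as a group from their measured values, because they are neighbours and because *Olfr1012* and *Olfr1013* were raised after exposure to 2,5-DMP. Their values in that comparison are therefore a description, without a test. The measurements come from pS6-IP-Seq, in which an antibody against phosphorylated ribosomal protein S6 retrieves ribosomes and their mRNA from recently active cells, and the retrieved RNA is sequenced. Each of the 51 libraries came from the whole olfactory mucosa of 1 wild-type C57BL/6J mouse of about 3 weeks, mixed in sex and taken from shared litters, after 1 hr of habituation and 1 hr of exposure to 10 uL of an odorant or of diluent.

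The 10 odor-exposed groups of 3 mice received 2,5-DMP at 1%, (E)-beta-farnesene at 100%, DHB at 77%, CPD at 100 mM, beta-caryophyllene at 1%, SBT at 0.01%, 1% or 100%, or MTMT at 100 uM or 10 mM. They were compared with 7 groups of 3 diluent-exposed (control) mice. 2,5-DMP, (E)-beta-farnesene and 100 uM MTMT had the same 3 control mice, and 1% and 100% SBT shared another 3, so comparisons within each of these sets are not independent. The labels do not name the diluent of any control mouse, and per the study's methods MTMT and CPD were diluted in ethanol and the other odorants in water, so the controls shared by 2,5-DMP, (E)-beta-farnesene and 100 uM MTMT cannot match all of these in diluent. The tables hold OR genes alone, so the labelled tissue could not be checked against its defining markers, and the markers of other cells of the nose were not analysed here. Every share below is a percentage of the OR reads of a library, and every fold change is an odor group over its control group.

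ORs are G protein-coupled receptors that detect volatile chemicals, and each mature olfactory sensory neuron (OSN) expresses a single OR gene from a single allele. Ligand binding opens a cAMP-dependent channel, the neuron fires, and S6 becomes phosphorylated within the hour, so that mRNA of the OR of an activated OSN is enriched in the immunoprecipitate. Neighbouring OR genes commonly arose by duplication, and close paralogs can bind related odorants. 2,5-DMP, 2,5-dimethylpyrazine, is a pyrazine of mouse urine. SBT is a dihydrothiazole and MTMT a thioether thiol of male urine. DHB is a bicyclic acetal of male urine, and CPD is a macrocyclic musk ketone.

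The genes lie head to tail except for *Olfr1012*, which is read from the minus strand. In GRCm38 with the GENCODE M21 annotation, *Olfr1012* (ENSMUSG00000075210) spans chr2:85757353-85762766 with its coding sequence of 936 bases at chr2:85759439-85760374. *Olfr1013* (ENSMUSG00000053287) spans chr2:85767098-85774649 on the plus strand, with 918 coding bases at chr2:85769803-85770720. *Olfr1014* (ENSMUSG00000059379) spans chr2:85772713-85778974 on the plus strand, with 918 coding bases at chr2:85776586-85777503. *Olfr1015* (ENSMUSG00000033850) spans chr2:85782017-85787812 on the plus strand, with 939 coding bases at chr2:85785513-85786451. Each coding sequence is a single exon, and the rest of each transcript is untranslated. The coding sequences are 9428, 5865 and 8009 bases apart, in order along the chromosome.

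**Figure D1:**
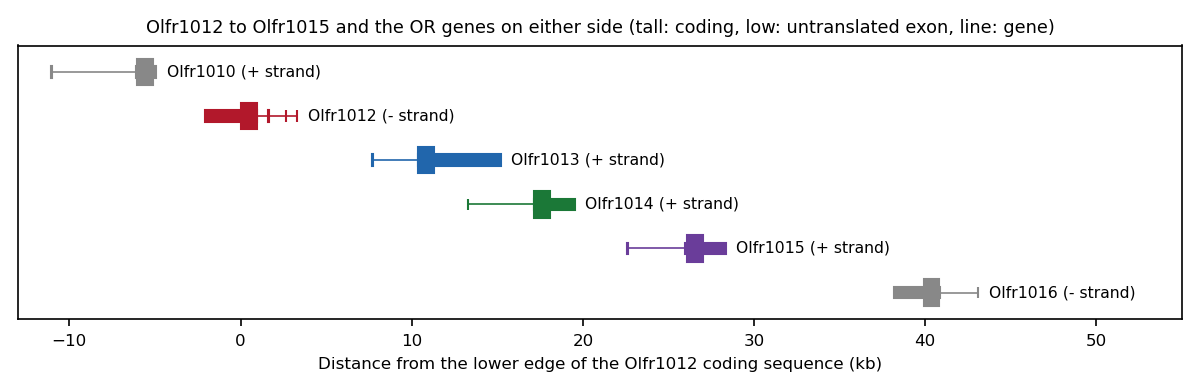
Map of the 4 genes and the nearest OR gene on each side, with distance from the lower edge of the *Olfr1012* coding sequence in kb on the horizontal axis and 1 row per gene. Tall blocks are coding sequence, low blocks untranslated exons and lines the span of the gene, and the last exon of *Olfr1013* reaches past the start of *Olfr1014*.

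*Olfr1013* and *Olfr1014* were the closest pair, with 88.9% of residues identical over proteins of 305 residues each. *Olfr1012* (311 residues) shared 78.4% with *Olfr1013* and 78% with *Olfr1014*. *Olfr1015* (312 residues) was more distant, with 64.3% to *Olfr1012*, 60% to *Olfr1013* and 60.3% to *Olfr1014*. The order is visible in the 150 coding bases around the conserved motif at the inner end of the third transmembrane segment, a motif with a known part in coupling ORs to their G protein. It starts at residue 120 in *Olfr1012*, *Olfr1013* and *Olfr1014*, which encode the same 3 residues there, and at residue 121 in *Olfr1015*, where 1 of the 3 differs. They are shown, aligned on that motif, because they let the near and the distant paralogs be told apart. Capitals mark bases that differ from *Olfr1012*, of which there are 37 in *Olfr1013*, 41 in *Olfr1014* and 59 in *Olfr1015*. The stretches are chr2:85759928-85760077 (minus strand), chr2:85770100-85770249, chr2:85776883-85777032 and chr2:85785813-85785962 (plus strand) of GRCm38, 5′ to 3′.
Olfr1012: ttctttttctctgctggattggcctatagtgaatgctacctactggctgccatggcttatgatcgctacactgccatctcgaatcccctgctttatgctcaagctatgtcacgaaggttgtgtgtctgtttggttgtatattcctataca
Olfr1013: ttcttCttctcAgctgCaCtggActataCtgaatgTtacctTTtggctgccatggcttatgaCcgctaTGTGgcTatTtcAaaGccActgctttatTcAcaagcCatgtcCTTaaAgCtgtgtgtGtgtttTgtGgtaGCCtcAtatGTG
Olfr1014: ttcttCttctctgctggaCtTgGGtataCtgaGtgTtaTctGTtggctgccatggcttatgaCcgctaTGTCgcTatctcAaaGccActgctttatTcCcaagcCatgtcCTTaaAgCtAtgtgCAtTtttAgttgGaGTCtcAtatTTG
Olfr1015: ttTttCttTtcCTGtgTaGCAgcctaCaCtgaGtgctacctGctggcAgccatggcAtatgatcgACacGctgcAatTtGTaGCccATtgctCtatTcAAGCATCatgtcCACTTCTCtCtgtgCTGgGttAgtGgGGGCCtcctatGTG

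Reads can be confused between some of these genes. Of the 50-base stretches in the transcripts of *Olfr1013*, 220 of 4876 (4.51%) also occur in another annotated transcript, and all 220 occur in *Olfr1014*. For *Olfr1014* it was 400 of 2398 stretches (16.7%), found also in *Olfr1012*, *Olfr1013* or the pseudogene *Gm49332*, whose exons overlap those of *Olfr1014* by 229 bases. The exons of *Olfr1013* and *Olfr1014* themselves overlap by 40 bases on the same strand. *Olfr1012* shared 1 of 3102 stretches and *Olfr1015* 0 of 2481, so that the counts of *Olfr1013* and *Olfr1014* are the ones left uncertain by how reads were divided.

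OR reads per library ranged from 27301 to 160001 with a median of 93870, and the shallowest group was the controls for 1% and 100% SBT with 27301, 44027 and 57154. *Olfr1012* received 74.2 reads per library on average, *Olfr1013* 81.3, *Olfr1014* 41.5 and *Olfr1015* 53, and all 4 members passed the filter on low counts in every comparison. Counts were compared by edgeR's quasi-likelihood test with TMM scaling over OR genes, with Benjamini-Hochberg adjustment over all ORs tested, and an adjusted p of 0.05 as threshold. Replicate mice differed by more than counting noise in each of 51 pairs within groups (chi-square per degree of freedom 5.22 to 28), so errors below are between mice. In such bulk samples, fewer OSNs expressing an OR and less of its RNA per OSN cannot be told apart.

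In the 21 control mice, *Olfr1012* took 0.0648 ± 0.0207% of OR reads (SD, n = 21), *Olfr1013* 0.0733 ± 0.0248%, *Olfr1014* 0.0409 ± 0.0149% and *Olfr1015* 0.0607 ± 0.0217% (SD, n = 21 each). All lay near the middle of the repertoire, ranked 395, 351, 589 and 418 among 1117 ORs, where the median OR took 0.0436%. Per kb of exon the order of the levels was different. *Olfr1015* had the highest level, 0.0244 ± 0.00875% per kb, followed by *Olfr1012* with 0.0206 ± 0.00656, *Olfr1014* with 0.0167 ± 0.00609 and *Olfr1013* with 0.0149 ± 0.00504% per kb (SD, n = 21 each). For each pair of neighbours in this order the mean log2 ratio was smaller than its SD between mice, and the differences of means were not tested. *Olfr1015* exceeded *Olfr1012* in 14 of 21 mice (mean log2 ratio per kb 0.23, SD 0.58), *Olfr1012* exceeded *Olfr1014* in 16 (0.31, SD 0.55), and *Olfr1014* exceeded *Olfr1013* in 10 (0.15, SD 0.65).

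The level without odor was compared between the 6 control groups (18 mice) that the 2,5-DMP comparison did not use. None of the 4 members passed the threshold between them (edgeR quasi-likelihood F test, adjusted p = 0.862, 0.974, 0.965 and 0.712 for *Olfr1012* to *Olfr1015*), 0 of them had an unadjusted p below 0.05, and DESeq2 called 0 as well. Over all ORs, 26 of 1084 (2.4%) passed the threshold in this test. Over all 7 control groups, means of *Olfr1012* ran from 0.053% to 0.0866%, and those of *Olfr1015* from 0.0449% to 0.0882%.

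After exposure to 2,5-DMP, the measurement by which the group was chosen, *Olfr1012*, *Olfr1013* and *Olfr1014* took 3.73, 3.41 and 2.67 times their control share, and *Olfr1015* took 1.18 times. *Olfr1012* took 0.174%, 0.202% and 0.218% of OR reads in the 3 exposed mice, against 0.0656%, 0.0448% and 0.0486% in their controls. Its log2 fold change was 1.88 (SE 0.25), from 1.75 to 2.09 when any library was left out. *Olfr1013* took 0.351%, 0.265% and 0.202% against 0.0959%, 0.0568% and 0.0867%, a log2 fold change of 1.76 (SE 0.28). For both genes every exposed mouse lay well above every control mouse, and these were the highest shares of *Olfr1013* in the whole series.

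*Olfr1014* took 0.182%, 0.0941% and 0.0651% of OR reads after 2,5-DMP, against 0.0432%, 0.0448% and 0.0397% in the controls. Its exposed mice also lay above all controls, but the first of them carried much of the difference: the log2 fold change was 1.40 (SE 0.34), and 0.82 without 2,5-DMP replicate 1. That mouse also had the highest share of *Olfr1013*, while in *Olfr1012* it was the lowest of the 3. *Olfr1015* took 0.0618%, 0.0741% and 0.0759% against 0.0624%, 0.0664% and 0.051%, so the groups overlapped, and its log2 fold change of 0.20 was smaller than its SE of 0.26. In order of p among 1070 ORs tested, *Olfr1012* came in place 2 and *Olfr1013* in place 5, and 9 ORs (0.841%) passed the threshold, which was the measure used in choosing the genes. When same-numbered mice were blocked together, 17 ORs passed, 13 higher and 4 lower. *Olfr491* (log2 fold change 1.24, SE 0.27) was the last OR inside that threshold, and *Olfr478* (1.42, SE 0.34) and then *Olfr1014* were the first outside it. The side on which *Olfr1014* fell depended on the setting: it was inside with the replicate block, DESeq2, library totals, the likelihood ratio test or 2,5-DMP replicate 3 left out, and outside in the other alternatives. *Olfr1012* and *Olfr1013* were inside and *Olfr1015* outside in all of them. Since this threshold took part in choosing the genes, these places and sides only describe the choice and are no support for a response.

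**Figure D2:**
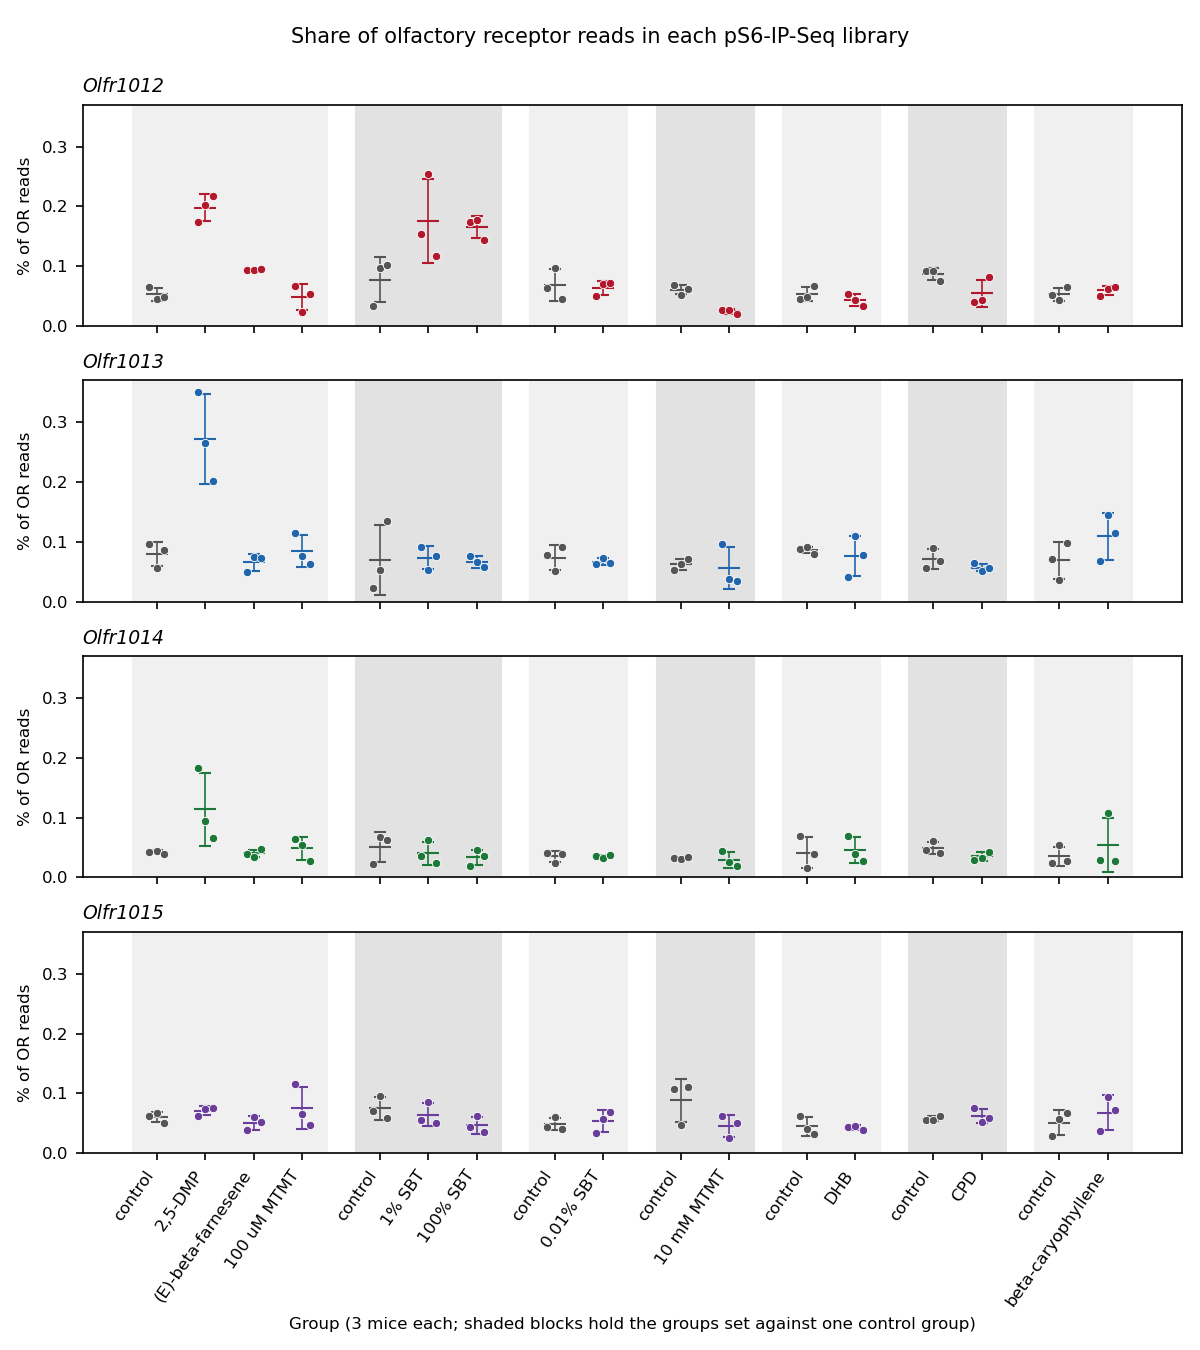
Share of OR reads (%, vertical axis, from 0) of each gene in each mouse, by group, with mean and SD of 3 mice as bars, control groups in grey and odor groups in colour; shaded blocks hold odor groups set against one control group. *Olfr1012*, *Olfr1013* and *Olfr1014* stand above their controls after 2,5-DMP, and *Olfr1012* alone also after 1% and 100% SBT and (E)-beta-farnesene.

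Outside 2,5-DMP, the 4 genes were tested in 9 comparisons, 36 tests in all, and 1 passed the threshold: *Olfr1012* was higher after 100% SBT. The 4 tests with an unadjusted p below 0.05 all belonged to *Olfr1012*, 3 of them higher (100% SBT, 1% SBT and (E)-beta-farnesene) and 1 lower (10 mM MTMT). DESeq2 made the same single call. The tests of (E)-beta-farnesene and 100 uM MTMT use the control mice against which the genes were chosen, and are not independent of that choice. Called ORs made up 11.3% of 1050 tested after 100% SBT (10.6% when the higher ones alone are counted), 0.863% of 1043 after 1% SBT, 0.466% of 1072 after 0.01% SBT, 1.77% of 1071 after (E)-beta-farnesene, 0.281% of 1068 after 100 uM MTMT and 0.564% of 1064 after DHB. No OR was called after 10 mM MTMT (0% of 1054, with 69 at an unadjusted p below 0.05 and 15 called by DESeq2), CPD (0% of 1050, with 40 and 1) or beta-caryophyllene (0% of 1048, with 51 and 0). The 1 of 4 members called after 100% SBT is thus read against 11.3% of the repertoire.

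After 100% SBT, *Olfr1012* took 0.174%, 0.178% and 0.144% of OR reads, against 0.0341%, 0.0962% and 0.103% in the controls shared with 1% SBT. All exposed mice lay above all control mice, and the first control mouse, with 15 *Olfr1012* reads, was the low one (95% Wilson interval of its share 0.0207% to 0.0562%, for counting error only). The share of all ORs whose groups separate is not given here. With 3 mice against 3, an exact permutation test cannot give a p below 0.1. Separation of groups, here and below, is therefore a description only. The log2 fold change was 1.51 (SE 0.41, adjusted p = 0.0281, from 0.000487 to 0.117 over the alternatives). The call was lost without control replicate 1 (1.16, adjusted p = 0.0592) and without exposed replicate 1, 2 or 3 (adjusted p = 0.117, 0.0865 and 0.0645). It was also lost with library totals in place of TMM scaling (1.10, adjusted p = 0.098). In this comparison the median log2 fold change of all ORs was -0.08 with TMM scaling and -0.46 with library totals, so *Olfr1012* stood above the median OR by about the same amount on both scales.

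The other 3 genes did not pass the threshold. After 100% SBT the log2 fold change of *Olfr1013* was 0.39 (SE 0.53), that of *Olfr1014* -0.19 (SE 0.54) and that of *Olfr1015* -0.30 (SE 0.42), each smaller than its SE, with adjusted p = 0.761, 0.901 and 0.768. The value of *Olfr1013* turned on single control libraries: it was 1.19 (adjusted p = 0.202) without control replicate 3, the shallowest library, and -0.02 without control replicate 1. *Olfr1013*, the paralog that was higher beside *Olfr1012* after 2,5-DMP, took 0.076%, 0.066% and 0.0573% against 0.0227%, 0.0525% and 0.136%, inside the range of its controls. The share of *Olfr1015* was 0.0463 ± 0.0136% against 0.0751 ± 0.0192% (SD, n = 3 each), with overlapping groups.

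After 1% SBT, *Olfr1012* took 0.154%, 0.255% and 0.118%, above all 3 of the same controls, with a log2 fold change of 1.30 (SE 0.47), which did not pass (adjusted p = 0.69). Exposed replicate 1 had reads for 973 ORs at 41426 OR reads, with 14.4% of them from *Olfr545*. Control replicate 1 had reads for 972 ORs at 44027. Chi-square per degree of freedom between the exposed mice was 14 to 19.4, and its part in the share of *Olfr1012* was not tested. In 1 fit of all 51 libraries, with a shared spread, the log2 fold change of *Olfr1012* was 1.35 with an adjusted p of 0.0132. That fit called 28 of 1102 ORs after 1% SBT, against 9 of 1043 in the fit of this comparison alone. In every other alternative *Olfr1012* did not pass. Its adjusted p ran from 0.309 (replicate block, log2 fold change 1.36) to 0.998 (without control replicate 1, 0.94). After 0.01% SBT, run with its own controls, *Olfr1012* took 0.05%, 0.0702% and 0.0712% against 0.0634%, 0.0974% and 0.0448% (log2 fold change -0.09, SE 0.33, adjusted p = 0.999). The log2 fold change at 100% exceeded that at 0.01% by 1.62 (SE 0.56), each taken against its own controls, which did not pass in edgeR (adjusted p = 0.0922), where 6.18% of ORs did. The 100% and 1% groups differed by 0.23 (SE 0.38, adjusted p = 0.793). Log2 fold changes of *Olfr1013*, *Olfr1014* and *Olfr1015* after 1% SBT were 0.27, -0.22 and -0.13, each smaller than its SE.

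Sample titles of the SBT libraries at 1% and 100% carry one of 2 prefixes, with 2 mice of each group under the one and 1 under the other. Within the first prefix the log2 ratio of mean *Olfr1012* shares was 1.43 after 100% SBT and 1.65 after 1% SBT. Within the second, with 1 mouse on each side, it was 0.49 and 0.20. With the prefix as a block the log2 fold change after 100% SBT was 1.52 with an adjusted p of 0.0497. In the single pair at 1%, the shares of 0.118% (95% Wilson interval 0.0939% to 0.148%) and 0.103% (0.071% to 0.148%) lay within counting error of each other, so no direction is shown there. In the single pair at 100%, the share of 0.144% (0.116% to 0.179%) had an interval that overlapped that of the same control mouse, so no direction is shown there either. Titles of the 10 mM MTMT, CPD and DHB libraries also carry 2 prefixes, split in the same way. With the prefix as a block, *Olfr1012* after 10 mM MTMT had a log2 fold change of -0.98 (edgeR, adjusted p = 0.589).

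After (E)-beta-farnesene, with the 3 control mice of 2,5-DMP, *Olfr1012* took 0.0928%, 0.0944% and 0.0954% of OR reads, tightly grouped and all above the controls given earlier. The log2 fold change was 0.89 (SE 0.27), which did not pass over 1071 ORs (adjusted p = 0.153, from 0.0461 to 0.59 over the alternatives). Without control replicate 1 it was 1.10 and passed (adjusted p = 0.0461). The other 3 genes lay inside or across the control range, with log2 fold changes of -0.24, -0.03 and -0.22. These controls took part in the choice of the genes, a choice that favours low controls, so the test supports nothing by itself. Their mean of 0.053% was the lowest of the 7 control means of *Olfr1012*, but hardly below the next ones. These were 0.0534% in the beta-caryophyllene controls and 0.0537% in the DHB controls, so the means do not show by themselves that these controls were low.

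After 10 mM MTMT, *Olfr1012* took 0.0263%, 0.027% and 0.0198% of OR reads, all below 0.0678%, 0.0523% and 0.0616% in its controls and the lowest group mean of the gene in the series. The exposed mice were unlike each other, with chi-square per degree of freedom of 19.9 to 28, and replicate 3 had 9.79% of its OR reads from *Olfr541*. The log2 fold change was -0.98 (SE 0.33), which did not pass (adjusted p = 0.478). On library totals it was -1.31, and the median of all ORs was -0.28 on that scale and 0.03 with TMM scaling. At 100 uM MTMT, with other controls, *Olfr1012* took 0.0668%, 0.0241% and 0.054% (log2 fold change -0.16, SE 0.34, adjusted p = 0.982). The doses were measured in separate experiments and are set side by side only.

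For *Olfr1013*, *Olfr1014* and *Olfr1015*, none of the 27 tests outside 2,5-DMP passed the threshold, and none had an unadjusted p below 0.05 in edgeR. The largest value of *Olfr1013* was 0.77 (SE 0.43, adjusted p = 0.905) after beta-caryophyllene, where it took 0.0672%, 0.145% and 0.115% against 0.0715%, 0.0368% and 0.0986%. *Olfr1014* was highest in the same group (0.75, SE 0.61), through 1 mouse with 0.107% beside 0.0292% and 0.027%. That mouse, beta-caryophyllene replicate 2, also had the highest share of *Olfr1013* and, with 0.0941%, of *Olfr1015* in its group. The library stood apart over the repertoire: it had reads for 970 ORs, against 1042 and 1037 in the other two at no greater depth, and its chi-square per degree of freedom was 23.6 and 24.5 against them and 9.92 between them. The part of this in the members' shares was not tested. *Olfr1015* was lowest after 10 mM MTMT (-0.62, SE 0.40, adjusted p = 0.899), with 0.0613%, 0.0258% and 0.0505% against 0.107%, 0.0466% and 0.111%. Over the 36 tests of all 4 genes, 27 log2 fold changes were smaller than 0.5 in size.

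**Figure D3:**
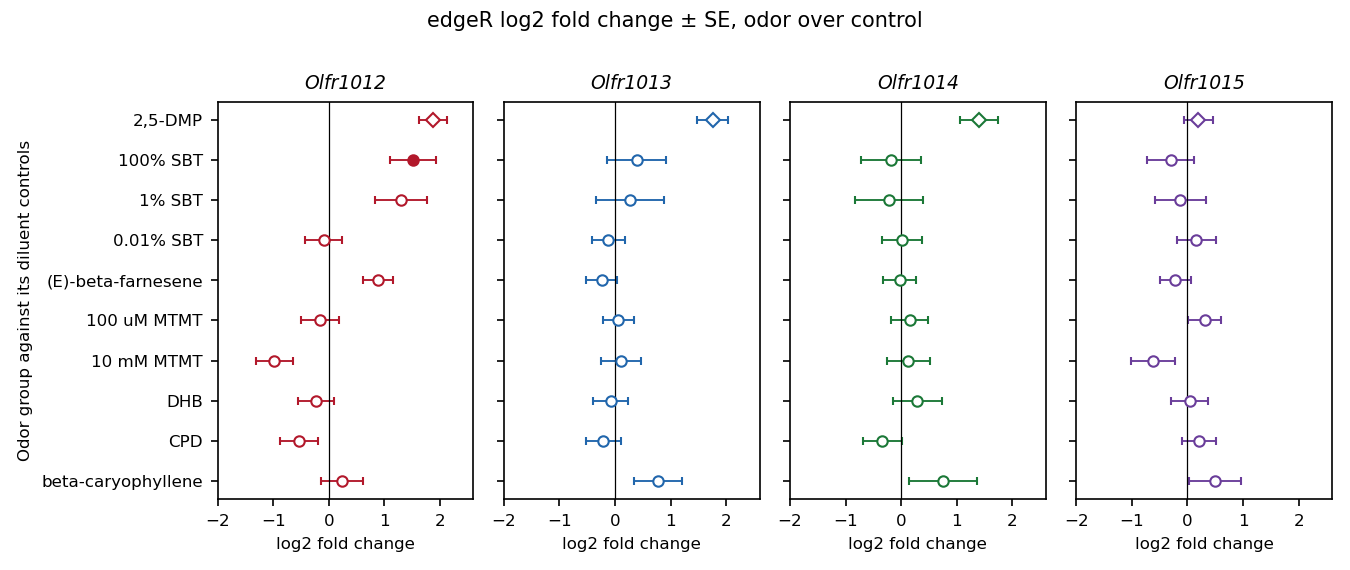
Log2 fold change of each gene (horizontal axis, edgeR, bars ± SE) in the 10 comparisons of an odor group with its control group (vertical axis). Diamonds are 2,5-DMP, given without a test, and the one filled circle is the value past an adjusted p of 0.05, *Olfr1012* after 100% SBT.

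The log2 ratio of *Olfr1012* to *Olfr1013* reads inside each library was chosen for a closer look after the values had been seen, and is given as a description. After 100% SBT the ratio was 1.20, 1.43 and 1.33 in the exposed mice and 0.58, 0.87 and -0.40 in the controls, a difference of 0.97. After (E)-beta-farnesene it was 0.90, 0.35 and 0.39 against -0.55, -0.34 and -0.83, a difference of 1.12. After 10 mM MTMT it was -1.87, -0.52 and -0.78 against 0.37, -0.28 and -0.22, a difference of -1.02. In these 3 comparisons the groups did not overlap, and the share of other OR pairs that separate is not given here. An exact permutation test gave p = 0.1 in each, the smallest value that 3 mice against 3 allow, so it could not pass. After 1% SBT the difference was 0.86, with overlapping groups. After 2,5-DMP, where both genes were higher, the ratio was -1.01, -0.39 and 0.11 against the same controls as (E)-beta-farnesene, a difference of 0.14.

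**Figure D4:**
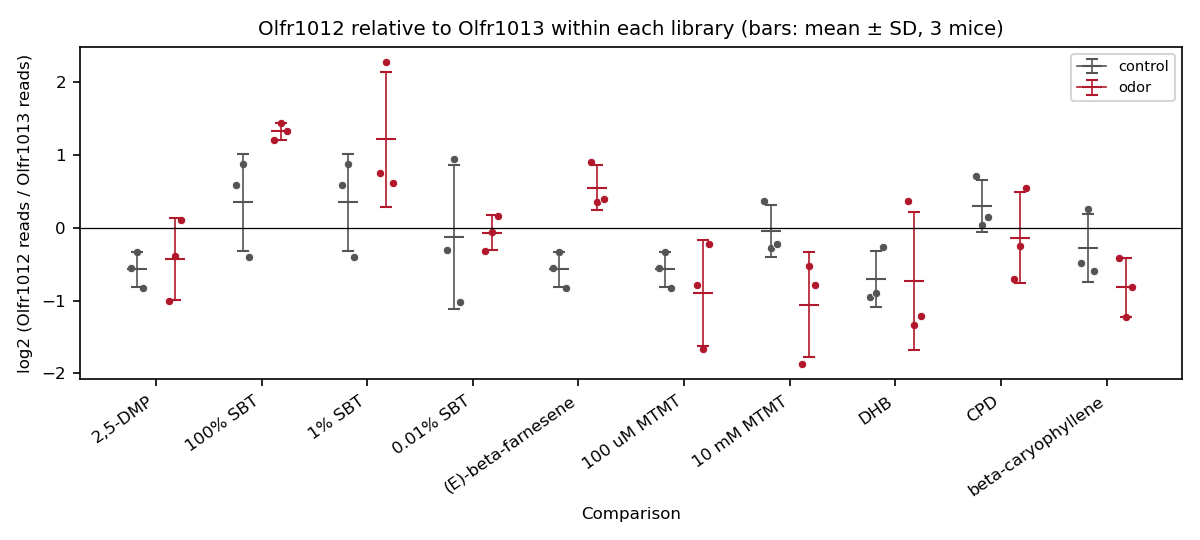
Log2 ratio of *Olfr1012* to *Olfr1013* reads in each library (vertical axis) for the 10 comparisons (horizontal axis), controls in grey and odor-exposed mice in red, with mean and SD of 3 mice as bars. Odor-exposed mice lie above their controls after 100% SBT and (E)-beta-farnesene and below them after 10 mM MTMT.

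The genes around the 4 members were then examined. Within 250 kb lie 23 other intact ORs of the tables, of which 18 to 22 had enough reads in a comparison, and 0 of them passed the threshold in any of the 9 comparisons outside 2,5-DMP. Their median log2 fold change lay between -0.19 and 0.34, beside -0.08 to 0.03 for all ORs, and the widest range was after 100% SBT, from -3.10 to 2.88 in ORs with few reads. Of 191 such tests, 7 had an unadjusted p below 0.05 in edgeR, and DESeq2 called 0. Over all ORs, the number with an unadjusted p below 0.05 ran from 29 of 1072 after 0.01% SBT to 222 of 1050 after 100% SBT. The 7 are therefore not read as a result about the neighbours. *Olfr1009*, named here after its values were seen, was the neighbour with the lowest adjusted p, and its log2 fold changes were 1.13 after 100% SBT (SE 0.44, adjusted p = 0.144) and 0.90 after (E)-beta-farnesene (SE 0.29, adjusted p = 0.211). With other settings, isolated neighbours were called: *Olfr1016* after 10 mM MTMT (1 fit of all libraries, or without odor replicate 1), *Olfr1030* after 100% SBT (library totals), and *Olfr1009* and *Olfr1019* after 100% SBT (without control replicate 2).

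After 2,5-DMP, given again as a description, the neighbours ran from -0.47 to 1.28 with a median of 0.17. The highest, *Olfr1022*, had an SE of 1.26. The nearest gene on each side, *Olfr1010* and *Olfr1016*, had values of 0.84 (SE 0.71) and 0.77 (SE 0.35), both below those of *Olfr1012* and *Olfr1013*. *Olfr1014* stood above them at 1.40 but was at 0.82 without 2,5-DMP replicate 1, and no difference was tested. Of all other ORs, 3 had at least 60% of residues identical to a member: *Olfr1006* with 84% to *Olfr1015*, *Olfr1016* with 79% to *Olfr1013* and to *Olfr1014*, and *Olfr1010* with 77.8% to *Olfr1012*. All 3 lie within the same 250 kb, and none of the 3 was called outside 2,5-DMP in edgeR with the settings used for the members or in DESeq2. *Olfr1016* was about as close in sequence to *Olfr1013* (79%) as *Olfr1012* is (78.4%). *Olfr1010* lacks a complete annotated coding frame, and its longest open frame was used.

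**Figure D5:**
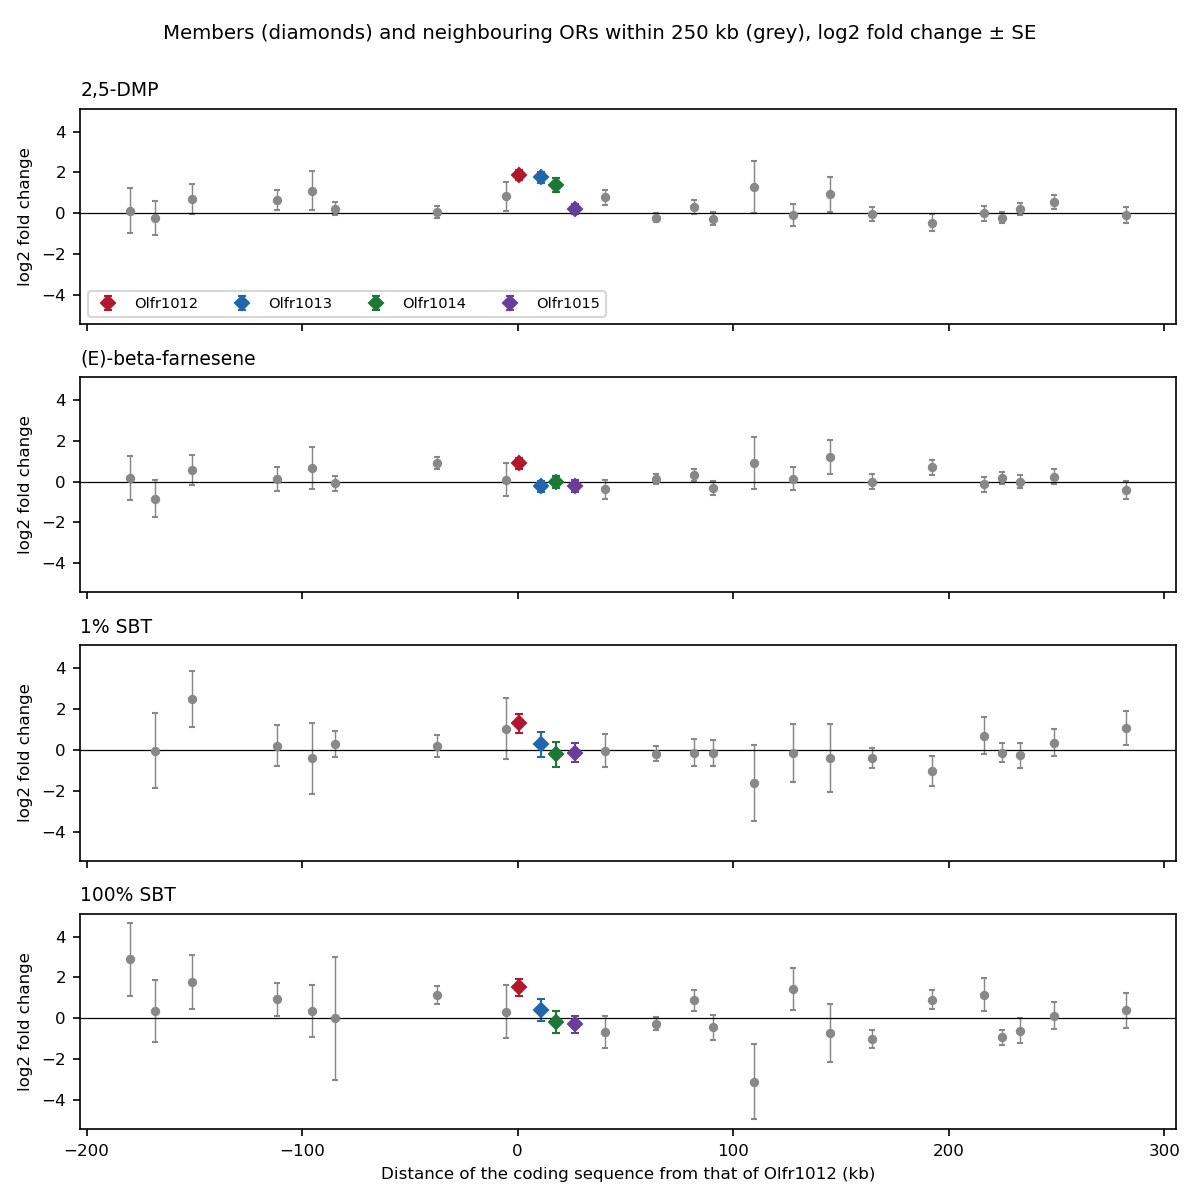
Log2 fold change ± SE (vertical axis) of the 4 genes (coloured diamonds) and of their neighbours (grey circles) against distance along the chromosome in kb (horizontal axis), after 2,5-DMP, (E)-beta-farnesene, 1% SBT and 100% SBT. After 2,5-DMP *Olfr1012*, *Olfr1013* and *Olfr1014* lie above 0 by more than their SE, and in the other 3 panels *Olfr1012* is the member that does.

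Whether mice of one group that had more of one member also had more of another was tested for the 6 pairs, and no pair passed after adjustment. Over 45 libraries of the 15 groups outside the 2,5-DMP comparison, with group means removed, Pearson's r of log2 shares was highest for *Olfr1014* and *Olfr1015* (r = 0.41, permutation p = 0.0319, adjusted over 6 pairs 0.191; Spearman's rho = 0.37, permutation p = 0.0491, adjusted 0.159), and r was 0.37 without the 2 libraries farthest from the median of *Olfr1014*. *Olfr1012* reached 0.33 with *Olfr1014* and 0.29 with *Olfr1015* (adjusted permutation p = 0.195 for each, rho = 0.28 and 0.34, with adjusted permutation p = 0.259 and 0.159). These values were 0.28 and 0.31 without the 2 farthest libraries of *Olfr1012*. *Olfr1013* and *Olfr1014*, the pair that shares exon bases and stretches of sequence, had an r of 0.23 (permutation p = 0.307, adjusted 0.369) and a rho of 0.12 (permutation p = 0.561, adjusted 0.673), and r fell to 0.08 without the 2 farthest libraries. The remaining pairs, *Olfr1012* with *Olfr1013* (r = 0.25, rho = 0.08) and *Olfr1013* with *Olfr1015* (r = 0.19, rho = 0.24), had adjusted permutation p of 0.382 and 0.369 for r and 0.69 and 0.294 for rho, and their r was 0.08 and 0.30 without the 2 farthest libraries. All shares within a library have one denominator, which all pairs have in common.

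Across the 17 group means, a description in which groups share controls and the rule's own groups take part, the OR most like *Olfr1013* among 788 ORs was *Olfr1014* (r = 0.88), followed by *Olfr698* (0.83), another OR higher after 2,5-DMP. *Olfr1014* was likewise most like *Olfr1013* and then *Olfr698* (0.80). Without the 2,5-DMP group, the likeness of *Olfr1013* to *Olfr1014* was 0.49 and to *Olfr698* 0.17, so it rested mainly on that group. The pattern of *Olfr1012* was most like that of *Olfr376* (r = 0.88), which was also past the threshold after 2,5-DMP, and of *Olfr115* (0.77), on other chromosomes, and these stayed at 0.84 and 0.75 without the 2,5-DMP group. Both ORs were picked by this r, and the 1% and 100% SBT groups, where *Olfr1012* had its group means of rank 2 and 3, stayed in. *Olfr1012* and *Olfr1013* reached 0.50 with the 2,5-DMP group and 0.10 without it. *Olfr1015* was most like *Olfr690* (0.68) and *Olfr1428* (0.63).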

How the data were processed

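The authors aligned pS6-IP-Seq reads with STAR to GRCm38, estimated reads per gene with RSEM and kept intact OR genes; the deposited values are expected counts, given as whole numbers per gene and library without normalization. The deposited tables also hold the authors' own fold changes, p-values and FDR, which were not used. In the table of a further odorant, the 6 per-sample columns match no labelled sample and were left out. Groups and replicate numbers came from the sample labels. Reads of other genes were not analysed here, so depth and shares refer to OR reads.

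edgeR 4.0.16 (R 4.3.3) was run on counts of 1117 ORs (TMM scaling, at least 10 reads over the libraries compared, estimateDisp, glmQLFit, glmQLFTest, no replicate block), with Benjamini-Hochberg adjustment over all ORs tested; the SE is the log2 fold change over the square root of F. Likeness and correlations used log2 of each OR's reads per 100000 plus 5, ORs with at least 20 reads per library on average (likeness), and 100000 two-sided permutations within groups (scipy 1.17.1). Alternatives were the replicate block, DESeq2 1.42.0, library totals, other filters, the likelihood ratio test, 1 fit of 51 libraries and each library left out; a block on title prefixes was added after seeing the data. Scripts were tested on simulated data. Loci of all 1117 ORs were read from GENCODE M21, and coding sequences from the matching GRCm38 genome; the study used a later annotation release.

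The study describes litter-matched mice, without stating that a replicate number marks a litter. Deviations from group means correlated above 0.1 for every same-numbered pair in 6 of 10 comparisons, and the block was read as the paired fit there. Printed values come from the fit without the block. For those 6 comparisons, the blocked value stands beside a result where it moved a count of calls by over 1.5 times. Outside them, the block moved the count of ORs called after 100 uM MTMT from 3 to 6. P-values measure the spread between the sampled mice, and Wilson intervals cover counting error only. The members and gene lists were chosen with earlier results of these data known: the 4 members in full, the ORs within 250 kb and those with at least 60% identity as counts with values where called, and the 2 ORs most like each member.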

Additional observations from a re-analysis of the deposited data

How the results depend on the processing

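Of 36 tests outside 2,5-DMP, the 1 call became 0 with library totals in place of TMM scaling and 2 in 1 fit of all 51 libraries (*Olfr1012* after 1% and 100% SBT), and ranged from 0 to 1 as libraries were left out. It was *Olfr1012* after 100% SBT in every setting with 1 call except without control replicate 1, where it was *Olfr1012* after (E)-beta-farnesene instead. With the replicate number as a block, *Olfr1012* after 100% SBT had a log2 fold change of 1.59 (adjusted p = 0.0136), the count stayed at 1 and, for 2,5-DMP, the blocked log2 fold changes were 1.89, 1.72, 1.23 and 0.21 for *Olfr1012* to *Olfr1015*. The block changed no call of a member in the 36 tests, but in 2,5-DMP it moved *Olfr1014* inside the threshold and the count of ORs called from 9 to 17. When libraries were left out, the 2,5-DMP log2 fold change ranged from 1.75 to 2.09 for *Olfr1012*, 1.47 to 1.94 for *Olfr1013*, 0.82 to 1.69 for *Olfr1014* and 0.06 to 0.27 for *Olfr1015*. None of these 2,5-DMP values changed sign in the alternatives run. The number of members that differed between control groups was 0 in every alternative run. Counts of all ORs called ranged over the alternatives from 8 to 28 after (E)-beta-farnesene, 3 to 7 after 0.01% SBT, 0 to 28 after 1% SBT (0 without its replicate 1), 89 to 160 after 100% SBT, 0 to 7 after 100 uM MTMT, 0 to 38 after 10 mM MTMT (38 without its replicate 1), 7 to 17 after 2,5-DMP, 4 to 8 after DHB, 0 to 1 after CPD and 14 to 56 between control groups, and were 0 throughout after beta-caryophyllene. No correlation between members passed its threshold in the 4 alternatives of scale and libraries or with any group left out. Shares of the members in controls moved by less than their SD when the most abundant OR of each library was left out of the total. With 3 mice per group, a log2 fold change as large as 1.30 (SE 0.47, *Olfr1012* after 1% SBT) did not pass. Reads of *Olfr1013* and of *Olfr1014* were as few as 10 in a library.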
